A study of Mus musculus with 19 samples.

Results

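This report follows 9 genes for channels, or close relatives of channels, that open on mechanical force or on protons in the dorsal root ganglia of mice, where the cell bodies of sensory neurons lie next to the spinal cord. The genes are Piezo1, Piezo2, Asic1, Asic2, Asic3, Asic4, Tmem63a, Tmem63b and Tmc1. They were chosen by symbol from the 36682 genes of the authors' table of counts and FPKM, which holds all 9, and all 9 had enough counts to be tested. The 19 mice were male and homozygous for MaFIA (macrophage Fas-induced apoptosis), so every group, the controls included, carried the transgene. The MaFIA transgene is driven by the Csf1r promoter, and the drug AP20187 dimerizes its product and kills the macrophages and other myeloid cells that carry it. Of these mice, 10 had osteoarthritis of the knee after its medial meniscus was destabilized by surgery (DMM), and 9 were age-matched naive mice without surgery. AP20187 or vehicle was injected into the peritoneum once a day for 5 days, in DMM mice 8 weeks after surgery. There were 5 DMM mice with AP20187 (mice 58 to 62), 5 DMM mice with vehicle (mice 32, 33, 34, 63 and 64), 4 naive mice with AP20187 (mice 1, 3, 4 and 5) and 5 naive mice with vehicle (mice 1 to 5). Ganglia L3 to L5 (per the labels, of the operated side) were pooled within each mouse and sequenced as stranded poly(A) RNA. The age of the mice is not given in the sources used here.

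Sensory neurons turn touch, stretch and tissue acidity into electrical signals through ion channels in their nerve endings, and the messenger RNA for these channels is made in the cell bodies of the ganglion. Piezo2 carries light touch and the sense of limb position, while its relative Piezo1 works mainly in cells other than neurons, such as the endothelium that lines blood vessels. The ASIC proteins are sodium channels that open when the fluid outside the cell turns acid, as it does in inflamed joints. Tmem63a and Tmem63b are relatives of the OSCA channels of plants, which open when a membrane is stretched, and Tmc1 forms the force-gated channel of hair cells in the inner ear.

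Libraries held between 60984830 and 74691396 counts. Levels are given as CPM, the count scaled to a common library size after TMM normalization, whose factors lay between 0.900 and 1.09. Values of a group are listed in the order of the mouse numbers above. None of the 12 pan-neuronal genes and none of the 7 sensory ganglion genes measured was at 0 in all libraries of any group. The same held for lists of other tissues, such as skeletal muscle and red cells, so it does not single out ganglion tissue. The summed level of 6 macrophage genes, Csf1r among them, was not lower with the drug: it ran from 186 to 784 CPM in DMM mice with AP20187 and from 120 to 488 CPM with vehicle, and from 359 to 597 CPM and from 67.2 to 366 CPM in naive mice. Of these 6 genes, 1 was called higher in DMM mice and 2 in naive mice, and none was called lower. The transgene itself was not analysed here. By the summed level of the pan-neuronal genes, a library lay far below the others in 3 groups: DMM AP20187 mouse 58 (2158 CPM against 4193 to 8062), naive AP20187 mouse 3 (2683 against 7692 to 12504) and DMM vehicle mouse 64 (6043 against 13202 to 16017).

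In the ganglia of DMM mice given AP20187, Tmem63a was higher and Asic2 and Tmem63b were lower than with vehicle, when levels are set against all RNA. Piezo2, Asic1 and Asic3 had negative fitted values between -1.50 and -1.23 on the log2 scale and did not pass the adjusted threshold. Piezo1 had a higher fitted value, and did not pass either. Of the 9 genes, 1 was called higher and 2 were called lower at an adjusted p under 0.05 (edgeR quasi-likelihood test), where 11.3% of all 22778 genes tested were called higher and 12.4% lower, so these counts are not far from the background. The median log2 fold change of the 9 genes was -1.11, against -0.10 over all genes tested. The treated mice 58 to 62 adjoin vehicle mice 63 and 64 in number, and vehicle mice 32 to 34 lie apart. Against mice 63 and 64 alone none of the 9 was called, where 4.73% of all genes were.

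In naive mice the drug was followed by 1 call: Tmem63a was higher, and no gene of the 9 was called lower, where 8.61% of all genes were called higher and 2.57% lower. The median log2 fold change of the 9 genes was -0.62, against -0.07 over all genes. The test of the difference between the drug effects in DMM and naive mice found none of the 9 (0 called, 0 at an unadjusted p under 0.05, and 0.114% of all genes called). The interval of that difference was wide, from -2.70 to 0.79 on the log2 scale for Asic1 and from -0.24 to 0.95 for Tmem63a, so differences of several fold would not have been resolved for every gene.

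Piezo2, at 63143284 to 63520254 on chromosome 18 (GRCm39, minus strand), had the highest mean CPM of the 9 in every group. In naive mice with vehicle it was at 334, 514, 208, 508 and 434 CPM. In naive mice with AP20187 it was at 125, 66.5, 320.4 and 288 CPM, and in DMM mice with AP20187 at 21.1, 106, 95.3, 189 and 108 CPM. In DMM mice with vehicle it was at 300.0, 582, 397, 119 and 72.4 CPM. All 5 libraries of DMM mice with AP20187 lay below the mean of the DMM vehicle libraries, yet the ranges overlapped, because mice 63 and 64 had levels like those of the treated mice.

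The fitted difference of Piezo2 between AP20187 and vehicle in DMM mice was -1.50 on the log2 scale (SE 0.56, adjusted p = 0.0596). In naive mice it was -0.998 (SE 0.60, adjusted p = 0.274), with an interval from -2.25 to 0.26. The DMM value passed the threshold without treated mouse 61 (-1.83) and without vehicle mouse 63 (-1.70) or 64 (-1.75). Against vehicle mice 32 to 34 alone it was -2.04 and passed the threshold, and against mice 63 and 64 alone it was 0.14 and did not. The number series in the titles is the only thing the labels give that separates those mice, and what it stands for is not stated.

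**Figure D1:**
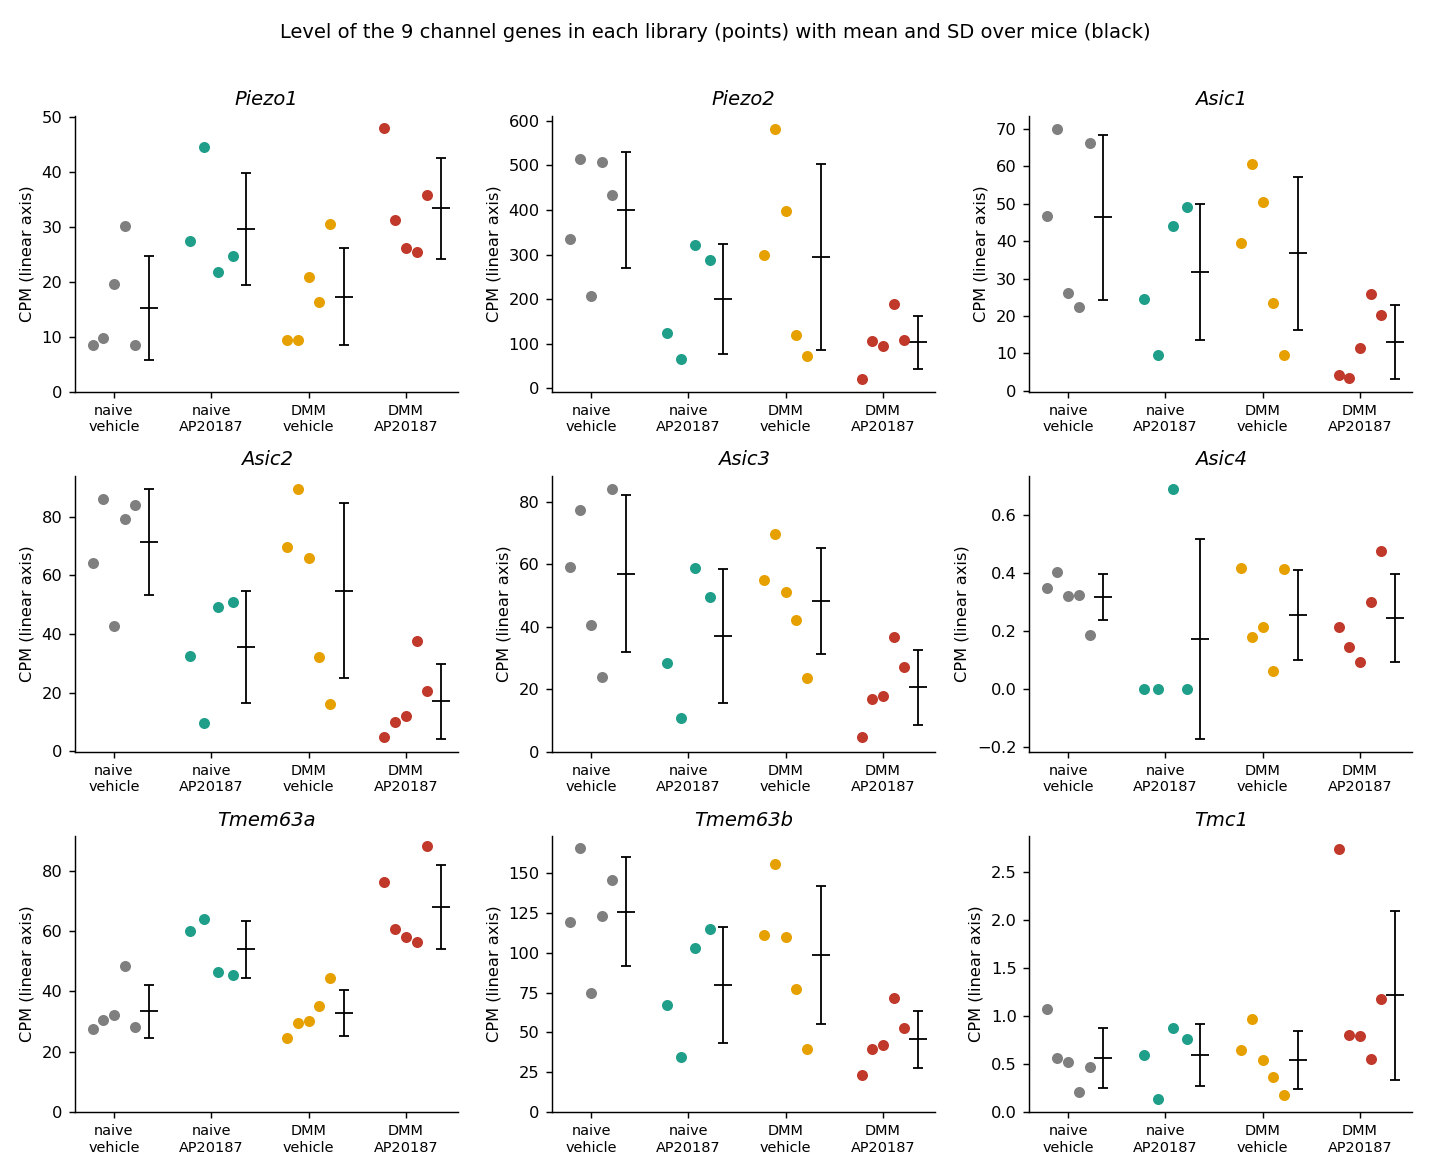
Level of each of the 9 genes in CPM (linear axis) in every library, by group, with points for libraries and black bars for the mean and SD over mice. Tmem63a is the gene whose DMM groups do not overlap; the DMM vehicle points of Piezo2 spread from 72.4 to 582 CPM.

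Piezo1, at 123208437 to 123278068 on chromosome 8 (GRCm39, minus strand), had fitted values opposite in sign to those of Piezo2. It was at 8.54, 9.77, 19.6, 30.1 and 8.42 CPM in naive mice with vehicle and at 27.4, 44.6, 21.7 and 24.8 CPM in naive mice with AP20187. In DMM mice it was at 9.42, 9.39, 20.9, 16.3 and 30.5 CPM with vehicle and at 48.1, 31.3, 26.2, 25.5 and 35.9 CPM with AP20187. All 9 treated libraries lay above the mean of their vehicle group, and 1 vehicle library in each pair of groups overlapped them: mouse 64 of the DMM mice and mouse 4 of the naive mice.

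The fitted log2 fold change of Piezo1 was 0.95 in DMM mice (SE 0.38, adjusted p = 0.0766) and 0.96 in naive mice (SE 0.40, adjusted p = 0.125). Without naive vehicle mouse 4 the naive value was 1.36, and without DMM vehicle mouse 64 the DMM value was 1.25; both then passed the threshold. Piezo1 overlaps Ctu2 on the same strand and Gm26497 on the other, and how the authors' counting dealt with shared positions is not given in the sources used here. For the same reason, reads of Asic2, Asic4, Piezo2, Tmem63a and Tmem63b may include some from genes that overlap them on the other strand.

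The ratio of the relatives spread widely. By FPKM, which corrects for gene length, Piezo2 stood at 6.16 to 30.7 times the level of Piezo1 in naive mice with vehicle and at 0.86 to 8.56 times with AP20187. In DMM mice the ratio ran from 1.37 to 36.1 with vehicle and from 0.25 to 4.30 with AP20187. In DMM mouse 58 and naive mouse 3, both given AP20187, Piezo1 thus exceeded Piezo2 per length.

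Tmem63a, at 180769909 to 180788406 on chromosome 1 (GRCm39, plus strand), gave the clearest difference of the 9. It was at 24.6, 29.4, 30.2, 35.0 and 44.5 CPM in DMM mice with vehicle and at 76.3, 60.9, 58.0, 56.3 and 88.4 CPM in DMM mice with AP20187. The 2 groups do not overlap; over all genes tested, 12.9% had such separate ranges in this comparison. The means were 32.8 ± 7.56 and 68.0 ± 13.9 CPM (SD, n = 5 each), and the fitted difference was 2.08-fold (log2 1.05, SE 0.20, adjusted p = 0.0016). It passed the threshold in all 10 fits that left out 1 library of these groups, with values between 0.94 and 1.19, and did not pass against mice 63 and 64 alone, where it was 0.78.

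In naive mice Tmem63a was at 27.6, 30.4, 32.0, 48.6 and 28.2 CPM with vehicle and at 60.3, 64.0, 46.5 and 45.4 CPM with AP20187. The groups overlapped through vehicle mouse 4 alone, whereas 15.5% of all genes tested had separate ranges here. The log2 fold change was 0.70 (SE 0.20, adjusted p = 0.0356). That call was lost without AP20187 mouse 1 or 3, or without vehicle mouse 1, 2, 3 or 5, in fits whose values ran from 0.59 to 0.68. It was kept in the other 3 fits, with 0.87 without vehicle mouse 4.

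Tmem63b, at 45971097 to 45997185 on chromosome 17 (GRCm39, minus strand), had the opposite sense. It was at 111, 156, 110.2, 77.1 and 39.8 CPM in DMM mice with vehicle and at 23.1, 39.6, 41.7, 71.4 and 52.7 CPM with AP20187. Its log2 fold change was -1.11 in DMM mice (SE 0.37, adjusted p = 0.0349), which passed the threshold. When libraries were scaled to pan-neuronal genes it turned to 0.32, while the median of all genes rose by 1.44. Relative to that median it was -1.02 on both scales, which follows from a scaling that moves most genes by a similar amount. The DMM call was also lost without mouse 58, 59, 60 or 62 of the treated mice or without 32, 33 or 34 of the vehicle mice, and against mice 63 and 64 alone, where it was -0.32.

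Naive mice had 120, 166, 75.1, 123 and 146 CPM of Tmem63b with vehicle and 67.1, 34.2, 103 and 115 CPM with AP20187. The log2 fold change was -0.66 there (adjusted p = 0.265). Per length, Tmem63b stood at 2.06 to 4.83 times the level of Tmem63a in naive mice with vehicle, and at 0.27 to 1.12 times in DMM mice with AP20187, so that Tmem63a was the more abundant of the pair in 4 of those 5 mice.

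Promoter stretches of 5 of the genes are shown next, so that those of Tmem63a and Piezo1, with positive fitted values, can be set beside those of 3 Asic genes, with negative ones. The sequences are from RefSeq (GRCm38.p6, another build than that of the gene positions above). Of its windows, 8 were used here, for 7 of the 9 genes, 250 bases before each start. That a gene is not among these 7 does not mean that RefSeq lacks a window for it. Each run ends where the first annotated exon begins, reads 5′ to 3′ on the gene's strand, and has matches to the motifs below in capitals.
Piezo1, chr8:122551330-122551429, minus strand: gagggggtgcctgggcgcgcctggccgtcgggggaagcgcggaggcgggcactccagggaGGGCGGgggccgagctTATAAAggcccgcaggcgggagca
Tmem63a, chr1:180942268-180942343, plus strand: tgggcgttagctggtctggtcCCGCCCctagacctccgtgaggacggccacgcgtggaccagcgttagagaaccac
Asic2, chr11:81968458-81968557, minus strand: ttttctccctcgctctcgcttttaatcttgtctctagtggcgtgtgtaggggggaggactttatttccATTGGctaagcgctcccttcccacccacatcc
Asic3, chr5:24413292-24413391, plus strand: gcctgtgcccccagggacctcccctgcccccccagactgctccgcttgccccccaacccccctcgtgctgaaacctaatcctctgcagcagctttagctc
Asic1, chr15:99692124-99692223, plus strand: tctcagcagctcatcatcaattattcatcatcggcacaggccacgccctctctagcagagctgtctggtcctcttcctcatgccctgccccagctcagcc

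The motifs searched on both strands of the 250 bases were the GC box GGGCGG, the TATA box TATAAA, the CCAAT box CCAAT and the homeodomain core TAATTA. Over all 32851 windows of that length, 32.7%, 12.4%, 33.8% and 4.84% held them, in that order. The GC box was found in the windows of Piezo1, Tmem63a and Tmem63b, the TATA box in that of Piezo1, and the CCAAT box in those of Tmem63a and Tmc1 and in 1 of the 2 of Asic2. No window of the 7 genes held TAATTA. The windows of Tmem63b, Piezo1 and Tmem63a held 31, 26 and 23 CpG pairs and those of Asic2 held 14 and 9, against a median of 6 over all windows, while those of Asic1 and Asic3 had 5 each and that of Tmc1 had 1. In the annotation used here all 250 bases of the Tmem63b window and of 1 Asic2 window, and 174 of those of Tmem63a, lie in exons of some transcript, so their counts describe mostly exon sequence; 61 bases of the other Asic2 window and 59 of the Asic3 window do too. The GC content was 75.6% in the window of Tmem63b, 74.0% in that of Piezo1 and 41.2% in that of Tmc1, against a median of 52.4%. These matches describe the letters only.

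Among the acid-sensing channels, Asic2, whose protein joins other ASIC subunits and tunes their response, was the member called lower in DMM mice. It lies at 80770995 to 81859283 on chromosome 11 (GRCm39, minus strand). It was at 69.7, 89.5, 66.0, 32.0 and 16.2 CPM in DMM mice with vehicle and at 4.71, 10.1, 11.9, 37.6 and 20.6 CPM with AP20187. The treated mice 58, 59 and 60 lay below every vehicle mouse, and mice 61 and 62 lay above vehicle mouse 64. The fitted difference was 3.22-fold (log2 -1.69, SE 0.53, adjusted p = 0.0282). The call was lost without mouse 58, 59 or 60, or without 32, 33 or 34, and against mice 63 and 64 alone, where the value was -0.48.

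In naive mice Asic2 was at 64.3, 86.0, 42.7, 79.1 and 84.0 CPM with vehicle and at 32.3, 9.75, 49.2 and 50.9 CPM with AP20187. The difference was -1.002 on the log2 scale (SE 0.55, adjusted p = 0.236). Each of the 4 treated libraries was below the vehicle mean, and 2 of them were below every vehicle library.

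Asic3, the subunit of pain-sensing neurons that supply muscle and joint, lies at 24618390 to 24622832 on chromosome 5 (GRCm39, plus strand). It was at 54.8, 69.5, 51.0, 42.1 and 23.4 CPM in DMM mice with vehicle and at 4.70, 16.9, 17.7, 36.6 and 27.0 CPM with AP20187. Treated mice 58, 59 and 60 were again below all vehicle mice. The fitted difference was -1.23 on the log2 scale (SE 0.48, adjusted p = 0.0714). It was -1.54 without treated mouse 61, -1.40 without vehicle mouse 64 and -1.51 against mice 32 to 34 alone, which passed the threshold, and -0.65 against mice 63 and 64 alone, which did not. In naive mice it was at 59.0, 77.2, 40.5, 23.9 and 84.1 CPM with vehicle and at 28.5, 10.9, 58.7 and 49.6 CPM with AP20187, a value of -0.62 on the log2 scale (adjusted p = 0.423), or -0.82 without vehicle mouse 4 (adjusted p = 0.290).

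Asic1, found in neurons of both the brain and the ganglia, lies at 99568249 to 99599011 on chromosome 15 (GRCm39, plus strand). Its level in DMM mice was 39.6, 60.6, 50.6, 23.5 and 9.49 CPM with vehicle and 4.23, 3.39, 11.4, 25.9 and 20.1 CPM with AP20187. The log2 fold change was -1.50 (SE 0.58, adjusted p = 0.0682). It was -1.91 without treated mouse 61, -1.74 without vehicle mouse 64 and -1.95 against mice 32 to 34 alone, which passed the threshold, and -0.32 against mice 63 and 64 alone, which did not. In naive mice it ran from 22.5 to 70.1 CPM with vehicle (median 46.7) and from 9.65 to 49.3 CPM with AP20187 (median 34.2), which gave -0.54 on the log2 scale (adjusted p = 0.570). The naive interval reached from -1.82 to 0.74, and the value without vehicle mouse 4 was -0.72 (adjusted p = 0.455).

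Asic4, a relative that is not known to open on protons alone, was near the limit of detection. It lies at 75427080 to 75450987 on chromosome 1 (GRCm39, plus strand), and a library held between 0 and 41 counts of it. In naive mice with AP20187 mice 1, 3 and 5 had 0 counts, where the limit set by 3 counts is between 0.0486 and 0.0519 CPM in this group, and mouse 4 had 41 counts (0.689 CPM), the highest of all 19 libraries. Naive mice with vehicle had 14 to 26 counts, and DMM mice 4 to 28 counts. Its fitted changes were -0.06 in DMM mice and -0.87 in naive mice and passed no threshold. Without naive AP20187 mouse 4 the other 3 treated mice of that group all stood at 0 counts and the gene was called lower, so that 1 library decided this value. The same group was low in genes of central neurons: of 7 such genes 6 were called lower in naive mice with AP20187 than with vehicle, Gabra6 and Slc6a5 were at 0 in all 4 of its libraries and in no other group, and Gad1 was at 1.39 ± 0.77 against 6.25 ± 1.24 CPM (SD, n = 4 and 5). The summed level of the 7 genes was 16.9 to 125 CPM in this group, 75.1 to 170.2 CPM in naive mice with vehicle, 24.4 to 71.6 CPM in DMM mice with AP20187 and 38.5 to 133 CPM in DMM mice with vehicle. Their part in the Asic4 values was not tested.

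The 4 Asic genes kept a steady order in most libraries despite the spread in level. By FPKM Asic3 held 46.4% to 69.9% of their sum in the 10 DMM libraries, Asic2 held 23.1% to 35.6%, Asic1 5.90% to 19.4%, and Asic4 at most 2.00%. In naive mice with AP20187 the same shares were 49.8% to 55.5%, 26.4% to 32.1% and 17.5% to 20.9%. The summed FPKM of the 4 genes was 38.6 ± 16.5 in DMM mice with vehicle and 14.1 ± 8.93 with AP20187 (SD, n = 5 each), so the level moved more than the composition.

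**Figure D2:**
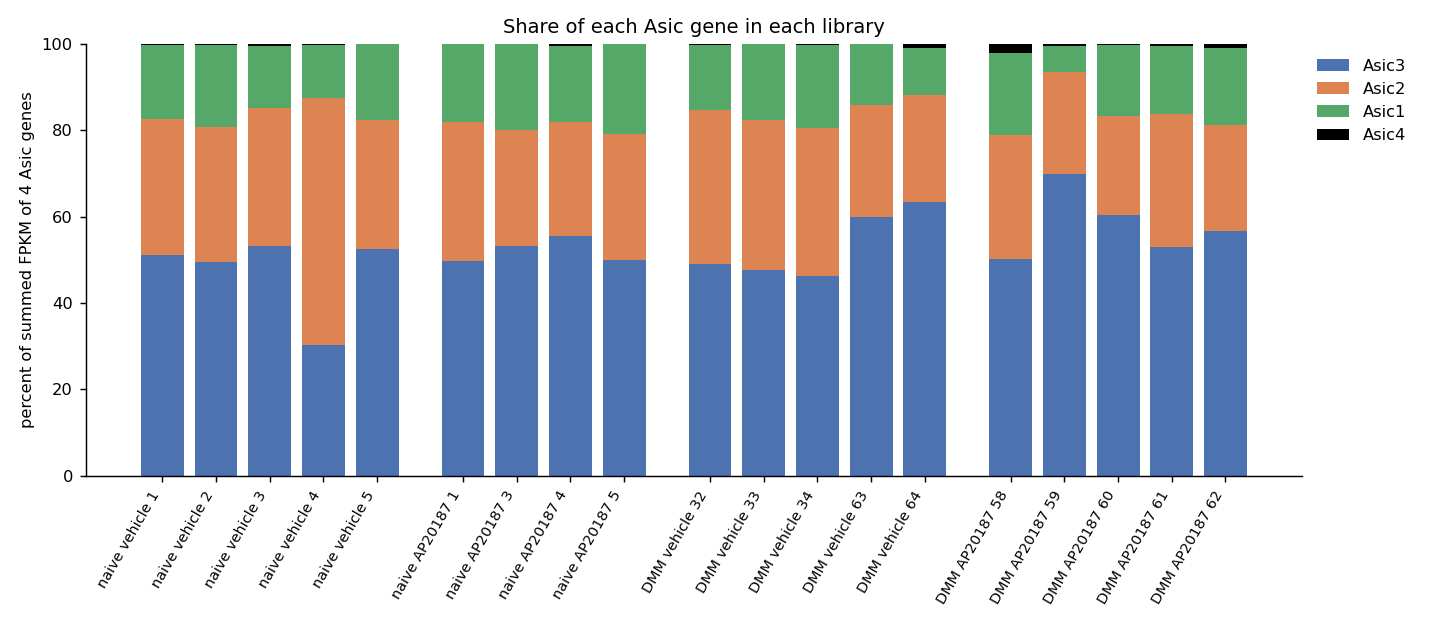
Percent of the summed FPKM of the 4 Asic genes that each gene holds, 1 bar per library, grouped by condition. Naive vehicle 4 is the library in which Asic2 holds 57.2% and Asic3 30.4%; elsewhere Asic3 is the largest.

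Naive vehicle mouse 4 departed from that order. Its Asic2 held 57.2% of the sum and its Asic3 30.4%, against 29.9% to 31.9% and 49.5% to 53.2% in the other 4 mice of its group. Piezo2 stood at 3.01 times Asic3 there, against 0.72 to 0.94 times in those 4 mice. Its Asic1 was at 22.5 and its Asic3 at 23.9 CPM, the lowest of the group, while its Piezo1 and Tmem63a were the highest. This library also held the most RNA of the endothelial list (304 CPM against 64.6 to 124 CPM) and of the red cell list (13027 against 3276 to 6180 CPM) in its group; their part in its channel levels was not tested.

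Tmc1, the hair cell gene, lies at 20760822 to 20931566 on chromosome 19 (GRCm39, minus strand) and was low in all groups. It ran from 0.177 to 0.970 CPM in DMM mice with vehicle and from 0.554 to 2.74 CPM with AP20187, where mouse 58 was at 2.74 CPM and the others at 1.17 CPM or less. The log2 fold change was 1.16 (SE 0.57, adjusted p = 0.148), and it was 0.62 without mouse 58. In naive mice it was 0.06, with 0.210 to 1.07 CPM with vehicle and 0.135 to 0.874 CPM with AP20187.

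Without the drug, none of the 9 genes differed between operated and naive mice beyond the spread between mice. Between DMM and naive mice given vehicle, 0 of the 9 were called and 0 had an unadjusted p under 0.05, and 0% of all genes were called. The fitted values ran from -0.44 for Piezo2, with an interval from -1.60 to 0.72, to 0.18 for Piezo1. The Piezo2 value was 0.094 with vehicle mice 32 to 34 alone, and -2.07 with mice 63 and 64 alone (adjusted p = 0.0840). Between DMM and naive mice given AP20187, again 0 of the 9 were called, where 0.702% of all genes were. Asic1, at -1.29, and Tmem63b, at -0.81, had unadjusted p-values of 0.0466 and 0.0483, and adjusted ones of 0.292 and 0.296 (edgeR). These comparisons share their libraries with the drug comparisons, so they are not independent of them.

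The order of the genes by length-corrected level was alike in the vehicle groups. In naive mice with vehicle Tmem63b (24.0 ± 6.08 FPKM), Asic3 (22.8 ± 9.81) and Piezo2 (22.6 ± 7.07; SD, n = 5) came first, with ranges that overlap. Asic2 followed at 16.3, then Asic1 at 7.84 and Tmem63a at 7.25 FPKM, again overlapping. Piezo1 (1.502 FPKM) lay apart from the gene above and the gene below it, and Asic4 and Tmc1 were last at 0.110 and 0.075 FPKM. In DMM mice with AP20187 Tmem63a came first instead at 14.6 ± 2.50 FPKM, ahead of Tmem63b at 8.62 ± 3.23 FPKM, although the ranges of these neighbours overlap.

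The levels of Piezo2, Asic2, Asic3 and Tmem63b tended to be lower, and those of Piezo1 and Tmem63a higher, in libraries with a smaller share of neuronal RNA, with exceptions among single libraries. The summed level of 12 pan-neuronal genes ran from 2158 to 8062 CPM in DMM mice with AP20187 and from 6043 to 16017 CPM with vehicle, and 9 of the 12 were called lower. In naive mice it ran from 2683 to 12504 CPM with AP20187 and from 8906 to 18105 CPM with vehicle, and none of the 12 was called. DMM mouse 58 had the lowest pan-neuronal sum of all 19 libraries, the lowest Piezo2, Asic2, Asic3 and Tmem63b, and the highest Piezo1. Naive vehicle mouse 4, with the lowest sum of its group, had 508 CPM of Piezo2 and 79.1 CPM of Asic2, and DMM vehicle mouse 63, with a sum of 13202 CPM against 13464 CPM in mouse 34, had 119 CPM of Piezo2 against 397 CPM. In bulk tissue, fewer neurons in the sample, less RNA per neuron and more RNA of other cells cannot be told apart.

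**Figure D3:**
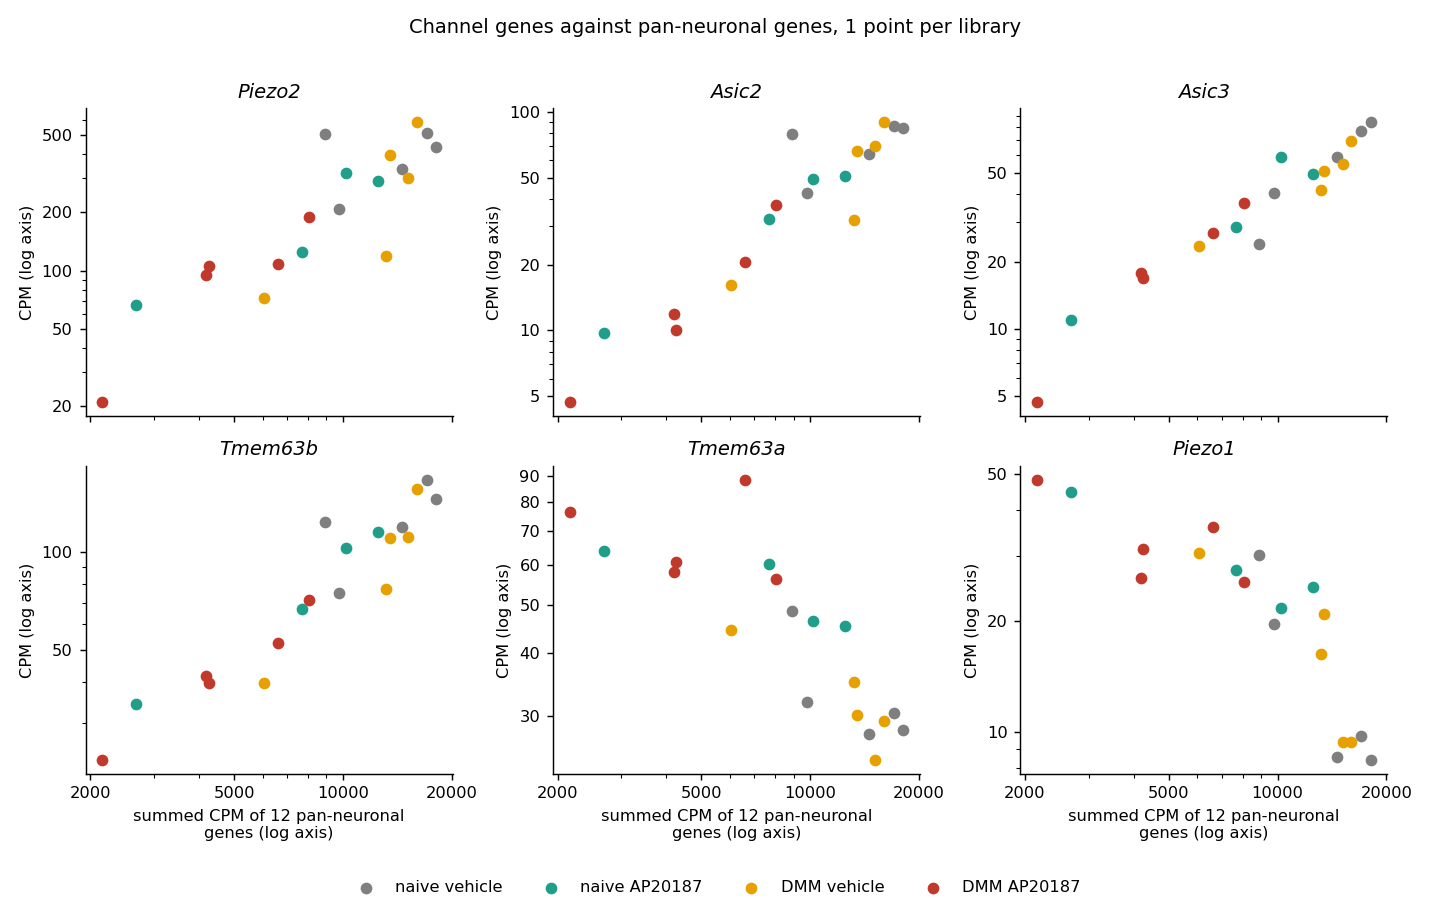
CPM of 6 of the channel genes against the summed CPM of 12 pan-neuronal genes, both on log axes, 1 point per library, coloured by group. Piezo2, Asic2, Asic3 and Tmem63b rise from left to right over the 4 groups together, and Tmem63a and Piezo1 fall.

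Set per 1000 CPM of pan-neuronal RNA, Asic3 was at 3.76 ± 0.42 in DMM mice with vehicle and at 3.80 ± 0.93 with AP20187 (SD, n = 5 each). Tmem63b was at 7.54 ± 1.51 and 9.35 ± 1.03 on that scale, and Piezo2 at 21.3 ± 11.5 and 19.4 ± 6.30. Piezo1 was at 1.81 ± 1.86 with vehicle and 8.90 ± 7.65 with AP20187, and Tmem63a at 3.15 ± 2.40 and 16.8 ± 10.8. Their medians were 1.24 and 6.24 for Piezo1 and 2.25 and 13.8 for Tmem63a. Vehicle mouse 64 (5.05 and 7.37) and treated mouse 58 (22.3 and 35.4) were the highest of their groups for both genes. The denominator was itself lower with the drug, which raises this ratio for a gene at an equal share of all RNA, so the ratios describe these libraries and were not tested.

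The same was fitted with libraries scaled so that the 12 pan-neuronal genes had equal mean levels. This moved the median of all genes in DMM mice from -0.10 to 1.34 on the log2 scale. On this scale Tmem63a (2.44, adjusted p = 0.0127), Piezo1 (2.33, adjusted p = 0.0285) and Tmc1 (3.34, adjusted p = 0.0114) were called higher in DMM mice, and none of the 9 was called lower, where 42.9% of all genes were called higher and 0.334% lower. Relative to the shifted median, the difference of Piezo1 was 0.98 and that of Tmem63a 1.10, close to the 1.04 and 1.15 under TMM, while that of Tmc1 was 2.00 against 1.26. The scaling moves most genes by a similar amount. Near equality relative to the median therefore follows from it and is no separate support. Per 1000 CPM of pan-neuronal RNA, Tmc1 was at 1.27 in treated mouse 58, at 0.0687 to 0.189 in the other 4 treated mice and at 0.0275 to 0.0606 with vehicle. The values of Piezo2 (-0.15), Asic1 (-0.18), Asic2 (-0.41, adjusted p = 0.246) and Asic3 (-0.00) had intervals that include 0, such as -0.91 to 0.62 for Piezo2. Relative to that median they were at least as far below the other genes as under TMM, at -1.49 against -1.41 for Piezo2 and -1.75 against -1.59 for Asic2. In naive mice no gene of the 9 was called on this scale, where 9.9% of all genes were called higher; Tmem63a was at 1.89 (adjusted p = 0.0539), and Asic1, Asic3 and Tmem63b turned from negative to positive. The median of all genes rose by 1.09 there, and relative to it these 3 genes were at -0.79, -0.88 and -0.88, further below than under TMM.

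**Figure D4:**
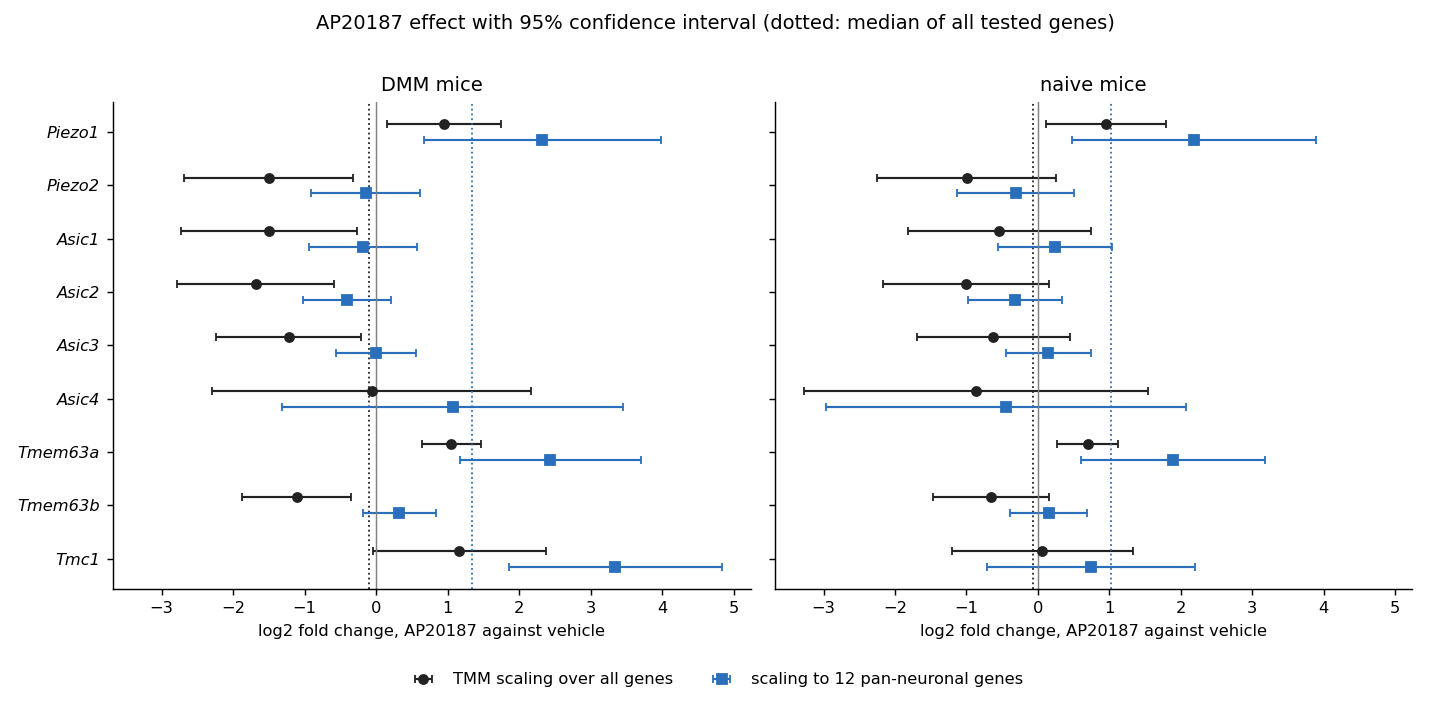
Log2 fold change of each gene between AP20187 and vehicle with its 95% confidence interval, in DMM mice (left) and naive mice (right), under TMM scaling (black circles) and under scaling to 12 pan-neuronal genes (blue squares); dotted lines mark the median of all genes tested. In DMM mice, Piezo2, Asic1, Asic2 and Asic3 sit below 0 under TMM and near 0 under pan-neuronal scaling.

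Markers of other cells differed beside Piezo1 and Tmem63a. The summed level of 6 endothelial genes ran from 153 to 289 CPM in DMM mice with AP20187 and from 66.3 to 149.6 CPM with vehicle, with 2 of the 6, Pecam1 and Emcn, called higher. In naive mice the endothelial sum was 206 to 471 CPM with AP20187 and 64.6 to 304 CPM with vehicle, with 1 of the 6 called higher. The 4 granulocyte precursor genes, which mark immature white cells of the marrow, summed to 1114 to 2403 CPM and 14.3 to 377 CPM in DMM mice with AP20187 and vehicle, and to 286 to 1511 CPM and 32.2 to 101 CPM in naive mice; all 4 were called higher in both. None of these genes was at 0 in all libraries of a group. Their part in the levels of Piezo1 and Tmem63a was not tested.

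Other lists differed too. In DMM mice 8 nociceptor genes, which mark pain-sensing neurons, summed to 924 to 1948 CPM with AP20187 and to 2025 to 3951 CPM with vehicle, ranges that do not overlap, and 5 of the 8 were called lower. In naive mice they summed to 806 to 2033 CPM and to 2686 to 3932 CPM, again without overlap, and none of the 8 was called. The 4 genes of C low threshold mechanoreceptors, neurons of gentle touch, were at 81.4 to 168 CPM with AP20187 and at 194 to 314 CPM with vehicle in naive mice, with 2 called lower, and at 44.0 to 132 CPM and 90.8 to 259 CPM in DMM mice, with 3 called lower. The 9 genes of large fibre neurons overlapped in naive mice (medians 2501 and 2782 CPM, 1 called higher) and ran from 545 to 1499 CPM and from 1154 to 3278 CPM in DMM mice, with 3 called lower. The 6 genes of myelinating Schwann cells, which wrap nerve fibres, summed in DMM mice to 1647 to 4796 CPM with AP20187 (median 2010) and to 3105 to 5291 CPM with vehicle (median 4096), and 2 of the 6 were called lower. In naive mice 6 skeletal muscle genes summed to 1501 to 2311 CPM with AP20187 and to 11.5 to 408 CPM with vehicle, and 2 of the 6 were called higher. In DMM mice the red cell list summed to 1261 to 5126 CPM with AP20187 and to 1565 to 26309 CPM with vehicle, and 4 of its 6 genes were called lower. Their part in the channel levels was not tested.

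The DMM vehicle libraries split by mouse number. Piezo2 averaged 426 CPM in mice 32 to 34 and 95.9 CPM in mice 63 and 64, Asic2 75.1 and 24.1 CPM, and Tmem63a 28.1 and 39.8 CPM. The granulocyte precursor sum of mice 63 and 64 was 131 and 377 CPM, against 14.3 to 93.1 CPM in mice 32 to 34, and their red cell sum was 11368 and 26309 CPM, against 1565 to 6674 CPM. The fibroblast sum was 4158 and 6487 CPM against 1139 to 1970 CPM, the satellite glia sum 4710.2 and 4365 CPM against 1981 to 2724 CPM, and the macrophage sum 289.5 and 488 CPM against 120.2 to 160.3 CPM, so these lists separate the same mice. The skeletal muscle sum was 1766 CPM in mouse 32 and 13.8 to 226 CPM in the other 4. The part of these cells in the channel levels was not tested. Compared with mice 32 to 34 alone, 2 of the 9 genes were called higher and 5 lower in DMM mice, where 36.3% of all genes were called in either direction. Compared with mice 63 and 64 alone, none of the 9 was called, where 4.73% of all genes were.

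Of 26 further genes of mechanical sensing, 25 were tested. In DMM mice 3 were called higher and 4 lower with AP20187, with a median log2 fold change of -0.39 against -0.10 over all genes; 11.3% of all genes were called higher and 12.4% lower, so these counts are close to the background. Tmc8, a relative of Tmc1 known from lymphocytes, rose by 1.75 (adjusted p = 0.0115), from 6.95 ± 5.16 to 23.4 ± 7.67 CPM. Tmem150c, tied to slowly adapting mechanical currents, fell by 1.40 (adjusted p = 0.0357), Anxa6, a membrane-binding annexin, by 1.26 (adjusted p = 0.0071), and Kcnk2, a stretch-sensitive potassium channel, by 1.23 (adjusted p = 0.0063). The other calls, named after their values were seen, were Stom at 0.90, Tmc6 at 0.50 and Lhfpl5 at -0.93. On the pan-neuronal scale 13 of the 25 were called higher and none lower, where 42.9% of all genes were called higher and the median of all genes was 1.34, and Anxa6, Kcnk2 and Lhfpl5 turned positive (0.12, 0.25 and 0.33). The counts ranged from 1 to 4 higher and from 2 to 8 lower over the fits that left out 1 library, with 1 higher and 2 lower without vehicle mouse 32 or 33, 4 higher and 8 lower without vehicle mouse 64, 7 lower without mouse 61, and 2 lower without mouse 58, 59, 60 or 34. Compared with mice 32 to 34 alone, 7 were called higher and 9 lower, and compared with mice 63 and 64 alone, none was. Of all genes, 36.3% and 4.73% were called in either direction in these fits. In naive mice Tmc8 was the single call, at 1.78 (adjusted p = 0.0225), where 8.61% of all genes were called higher and 2.57% lower. That call was lost without AP20187 mouse 1 or 3 or vehicle mouse 1, 2 or 5. Without AP20187 mouse 5, 1 of the 25 was called higher and 3 lower, and without vehicle mouse 4, 2 were called higher.

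Of 16 further genes of acid sensing, 13 were tested, and 1 was called higher and 7 lower in DMM mice, with a median log2 fold change of -0.90, against the same shares and median of all genes. Gpr65, a proton-sensing receptor of white cells, rose by 1.45 (adjusted p = 0.0219), from 9.91 ± 7.11 to 27.0 ± 6.03 CPM. Trpv1, the channel of pain-sensing neurons that opens on heat, capsaicin and acid, fell by 1.70 (adjusted p = 0.0181), from 98.8 ± 42.7 to 30.3 ± 21.2 CPM. Kcnk3, an acid-sensitive potassium channel, fell by 1.59 (adjusted p = 0.0255), and Stoml1, a stomatin relative, by 1.26 (adjusted p = 0.0036). The other 4 that fell, named after their values were seen, were the potassium channel Kcnk9 (by 1.23), the proton channel Otop1 (by 1.19), the proton-activated chloride channel Pacc1 (by 0.90) and Pick1 (by 0.75), whose protein binds ASIC subunits. On the pan-neuronal scale none of the 13 was called lower and 2 were called higher, where 0.334% and 42.9% of all genes were. Trpv1 was at -0.43, Kcnk3 at -0.29 and Otop1 at -0.00 there. Stoml1 (0.15), Kcnk9 (0.31), Pacc1 (0.46) and Pick1 (0.68) turned positive. All of these lay below the median of 1.34 over all genes. The number called lower ranged from 3, without mouse 58, to 8, without vehicle mouse 64, over the fits that left out 1 library, and was 4 without mouse 59, 60, 32 or 33; Gpr65 was lost without vehicle mouse 32, 33 or 34, and none of the 13 was called against mice 63 and 64 alone.

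In naive mice, 1 of those 13 genes was called higher and 3 lower, where 8.61% and 2.57% of all genes were. Gpr65 rose by 1.81 (adjusted p = 0.0154), and Kcnk9, an acid-sensitive potassium channel, fell by 1.64 (adjusted p = 0.0239). Stoml1 fell by 1.05 (adjusted p = 0.0241). Kcnk9 (-0.83) and Stoml1 (-0.23) stayed negative on the pan-neuronal scale and passed no threshold there. None of the 4 calls was left without AP20187 mouse 1 or 3, no gene was called lower without vehicle mouse 1 or 2, and 1 was without vehicle mouse 5. In the edgeR fit of all 19 libraries, no gene of either list was called between DMM and naive mice or in the difference between the drug effects.

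Over the 19 libraries, the genes most like each member were found by Pearson's r of log2 CPM, given as a description; all points share the scaling and the neuronal content of their library. Piezo2 was closest to Plekha6, Slit1 and Cep170b (r = 0.993, 0.993 and 0.992), Asic2 to Tmem151b, Tbc1d9 and Trarg1 (r = 0.995, 0.994 and 0.993), and Tmem63b to Pacsin1, Parm1 and Kif5a (r = 0.996, 0.994 and 0.993). Asic1 was close to Lgi3 and Kcng4 (r = 0.970 and 0.966), and Asic3 to Plekhd1, Cpne6 and Macrod2 (r = 0.986, 0.979 and 0.97). Tmem63a went with Actn1, B4galt1 and Wipf1 (r = 0.984, 0.984 and 0.981), and Piezo1 with Hacd4, Nfatc1 and Man1a (r = 0.967, 0.966 and 0.966). The nearest genes were less near for the rarest of the 9, Asic4 (Gpr101, Fcsk and Ltk, r = 0.843, 0.803 and 0.792) and Tmc1 (Tex26, Srpk1 and Gk, r = 0.744, 0.721 and 0.714).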

How the data were processed

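The authors deposited raw counts for each gene as whole numbers and, in a further table, the same counts beside FPKM, which they scaled by gene length and sequencing depth. All 9 genes had equal counts in both tables in all 19 libraries. Per the submitters' processing notes, cutadapt, HISAT2 and StringTie were used with GRCm39; versions and counting settings are not given in the sources used here. Gene positions and overlaps are those of the deposited table.

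The counts went into edgeR 4.0.16 (R 4.3.3, TMM, filterByExpr with a minimum count of 10, quasi-likelihood F test, two-sided) in 1 model of the 4 groups with 15 residual degrees of freedom. Adjusted p are Benjamini-Hochberg values over the 22778 genes tested in each of 5 comparisons, with 0.05 as threshold. Nothing in the labels says that mice came from separate litters or cages, so p-values measure the spread between these mice. The script was tested on simulated data.

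The 9 genes, the lists of further genes and the marker lists were chosen with earlier results of these data known. Of each list up to 4 called genes per comparison are named, those with the largest absolute log2 fold change, and the 3 genes most like each member. Some genes that this rule names are not reported here. Alternatives were DESeq2 1.42.0, no filter, fewer libraries, limma 3.58.1 on log2(FPKM + 1) or log2(FPKM + 0.1), and scaling to 12 pan-neuronal genes. No 2 libraries of a group agreed within sampling noise (chi-square per degree of freedom at least 52.3). The limit of 3 counts covers counting error only.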

Additional observations from a re-analysis of the deposited data

Results flagged for a closer look

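Of 36 sets of values (9 genes in 4 groups), 3 held a library far from the rest by Dixon's test; chance alone flags about 1 in 20. Asic4 was at 0.689 CPM in naive AP20187 mouse 4, while the other 3 mice of that group had 0 counts. Tmem63a was at 48.6 CPM in naive vehicle mouse 4, and the nearest of the other 4 mice was at 32.0 CPM. Tmc1 was at 2.74 CPM in DMM AP20187 mouse 58, and the nearest of the other 4 was at 1.17 CPM. The cause of these values was not tested.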

How the results depend on the processing

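With AP20187 in DMM mice, 3 of the 9 genes were called, and 23.8% of all genes. The count was 7 by DESeq2 (35.0% of all genes), 1 with only the libraries compared (19.8%), 4 and 5 by limma on log2(FPKM + 1) and log2(FPKM + 0.1) (25.3% and 24.9%), 7 against vehicle mice 32 to 34 (36.3%), and 0 against mice 63 and 64 (4.73%); leaving out 1 library gave 1 to 7, with 1 without mouse 58 (14.2%) and 7 without vehicle mouse 64 (34.0%). In naive mice 1 was called (11.2% of all genes), and 0 with no filter on low counts (4.89%), by limma on FPKM with either pseudocount (16.7% and 17.1%), and with pan-neuronal scaling (10.1%); leaving out 1 library gave 0 to 2. Libraries of equal mouse number in the naive groups had correlations of deviations from 0.30 to -0.08. Only AP20187 mouse 3 was closest to the vehicle mouse of its own number. So few pairs cannot decide whether the numbers pair the libraries. A fit with the replicate block gave 2 calls, Asic2 at -1.10 and Piezo2 at -1.06 (11.5% of all genes called). The same 8 libraries without the block gave 0 (6.8%), in a fit chosen after seeing the data. Between DMM and naive mice with AP20187, leaving out 1 library gave 0 to 1 call: Asic4 at 7.01 without naive AP20187 mouse 4, where its naive drug value was -7.38, both against a group at 0 counts and so dependent on the prior count.

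Signs turned as follows; the causes were not tested. Under pan-neuronal scaling the DMM drug values were 1.07 for Asic4 and 0.32 for Tmem63b, the naive ones 0.24 for Asic1, 0.14 for Asic3 and 0.15 for Tmem63b, the vehicle DMM against naive ones 0.13 for Asic4, 0.33 for Tmem63a and 0.0022 for Tmc1, and the differences of the drug effects 0.14 for Piezo1, 0.16 for Piezo2 and 0.17 for Tmem63b. The median of all genes rose by 1.44, 1.09, 0.28 and 0.36 in these comparisons, in that order. Such turns of sign need not be particular to these genes. Against vehicle mice 63 and 64 the DMM drug values were 0.14 for Piezo2 and 0.0039 for Asic4, the vehicle DMM against naive value of Tmem63a was 0.28, and the differences of the drug effects were 1.13 for Piezo2, 0.22 for Asic1, 0.52 for Asic2 and 0.33 for Tmem63b. With vehicle mice 32 to 34 the DMM against naive values were -0.21 for Piezo1, 0.094 for Piezo2, 0.12 for Asic1, 0.076 for Asic2, 0.037 for Asic3 and 0.35 for Tmc1, and the difference of the drug effects was 0.38 for Piezo1. By limma on log2(FPKM + 1) and log2(FPKM + 0.1) the naive drug value of Tmc1 was -0.0051 and -0.035, the vehicle value of Tmem63a 0.0054 and 0.0053, and the difference for Piezo1 0.12 and 0.11, which DESeq2 gave as 0.0073. Leaving out 1 library, signs turned within -0.45 to 0.17 for Asic4 in DMM mice, -0.19 to 0.42 for Tmc1 in naive mice, -0.16 to 0.15 for Tmem63a, -0.38 to 0.30 for Tmc1 and -0.13 to 0.58 for Piezo1 between vehicle groups, and -0.41 to 0.30 for the difference of Piezo1.

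Of the other values of single genes, 273 kept their direction and side of the threshold, 15 passed it and 13 no longer did; with 1 library left out, 459, 11 and 19. Of the further acid-sensing genes in naive mice, 3 were called lower, 6 by DESeq2 and 7 by limma on FPKM with either pseudocount, and of the mechanical ones 0, 1 by DESeq2, and 4 and 5 by limma. Of all genes, 11.2% were called in either direction in the main naive fit, 19.1% by DESeq2, and 16.7% and 17.1% by limma. In DMM mice the mechanical genes called lower were 4, and 2 with no filter, where 23.8% and 11.3% of all genes were called in either direction. Between DMM and naive mice given AP20187, 1 mechanical gene was called higher by DESeq2 (4.87% of all genes called). Limma with either pseudocount gave 1 as well (4.84% and 3.83%). With vehicle mice 63 and 64 alone, 1 was called higher in DMM than in naive vehicle mice (2.21%). At this depth Asic4 and Tmc1 rest on few counts, 0 to 41 and 8 to 181 in a library.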
